A study of Arabidopsis thaliana with 25 samples.

Results

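The mitochondrion-encoded genes of Arabidopsis thaliana were followed in cotyledons, the seed leaves, as seedlings passed from dark to light growth. Members were the rows of the count table whose identifier starts with ATMG, the prefix of the mitochondrial chromosome, and that held at least 100 counts over the 25 libraries. This gave 61 of 126 such rows, of which 3 join 2 identifiers. Of the other rows, 29 held no count and 36 held 1 to 99. The rows nearest below the threshold were ATMG00920, ATMG01190 and ATMG01180 with 89, 87 and 75 counts, and the nearest above it were ATMG00610, ATMG00670 and the joined row ATMG00670-ATMG09740 with 101, 102 and 104 counts. A product is named for 19 members, from notes in the RefSeq annotation of the nuclear loci they resemble, and the others are given by identifier alone.

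Plant mitochondria keep a genome of their own, which codes for ribosomal RNAs, for some subunits of respiratory complexes I, III and IV and of ATP synthase, for factors that attach haem to cytochrome c and for some ribosomal proteins. The other subunits of the same complexes are encoded in the nucleus, made in the cytosol and imported. Mitochondrial genes are transcribed by phage-type RNA polymerases encoded in the nucleus. Cotyledons that green in light gain photosynthesis while their mitochondria keep serving respiration and, in leaves, photorespiration. Plant nuclear genomes also carry inserted pieces of mitochondrial DNA, and the nuclear chromosome 2 of Arabidopsis holds a long insertion of this kind near its centromere.

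All libraries came from wild-type (WT) seedlings grown for 5 days on Murashige and Skoog (MS 1/2) medium, and there were 5 groups of 5 libraries, biological replicates 1 to 5. Group D had grown in darkness. Groups 1h, 6h and 24h were such dark-grown seedlings given 1, 6 or 24 h of continuous light, and group L had grown under long days. Seedlings were fixed in acetone, cotyledons were dissected, and Drosophila cells, an outside yardstick of RNA amount, were added before grinding and RNA extraction. No dark group was kept for as long as the lit ones, so light and added age cannot be told apart. Whether replicates were grown separately is not in the labels, and a p-value here measures no more than the spread among these samples.

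Libraries held 17901840 to 24085995 counts, of which 2442 to 32872 were mitochondrial and 42861 to 964232 were Drosophila. A level below is a Drosophila-scaled CPM, the count divided by a library size proportional to the library's Drosophila counts. 1 count was worth a level of 0.0981 to 0.210 in L libraries and 0.00931 to 0.0353 in D libraries, so low members were measured more coarsely in L. A count of 0 allows up to 3 counts, a level of at most 0.629 in L and 0.106 in D, and covers counting error only. As plain CPM of Arabidopsis counts, with no Drosophila scaling, 4 cotyledon and leaf genes summed to 56310 to 70457 CPM in L and 14525 to 25902 CPM in D. The root endodermis genes CASP1 and CASP2 did not pass 1.17 CPM in any library. Among shoot meristem genes, WUS did not pass 0.152 CPM and CLV3 did not pass 1.78 CPM. STM ran from 0.0833 to 10.1 CPM and CLV1 from 4.77 to 34.5 CPM. The sum of these meristem genes was 26.7 to 44.3 CPM in D and 9.52 to 11.8 CPM in L. The root-expressed gene PYK10 was present at 432 to 2086 CPM.

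Reads of many members cannot be assigned with certainty, because the same letters stand on chromosome 2. In the TAIR10.1 reference, 8 chosen mitochondrial coding sequences (atp8, atp9, cob, cox3, nad3, rpl5, rps4 and rps7) were compared. Each had a copy on chromosome 2 that differed at 0 bases. Other coding sequences were not compared in this way, so 8 is not a count of all identical copies. The sequences of atp9 and nad3 are shown because atp9 (ATMG01080) was the most counted member with a named product and nad3 (ATMG00990) the next among the 8 compared. The atp9 reading frame, 225 bases, lies at MT:270961-271185 on the minus strand and again at chr2:3251856-3252080 on the minus strand, within AT2G07671. The nad3 frame, 357 bases, lies at MT:288044-288400 on the plus strand and again at chr2:3270008-3270364 on the plus strand, within AT2G07751, and its first 300 bases are shown. No base is in capitals, since none differs between the places.
atp9, both places: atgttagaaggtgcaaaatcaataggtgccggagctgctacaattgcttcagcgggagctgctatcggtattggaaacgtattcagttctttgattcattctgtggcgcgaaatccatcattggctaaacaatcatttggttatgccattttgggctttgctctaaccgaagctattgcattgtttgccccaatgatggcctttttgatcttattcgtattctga
nad3, first 300 bases, both places: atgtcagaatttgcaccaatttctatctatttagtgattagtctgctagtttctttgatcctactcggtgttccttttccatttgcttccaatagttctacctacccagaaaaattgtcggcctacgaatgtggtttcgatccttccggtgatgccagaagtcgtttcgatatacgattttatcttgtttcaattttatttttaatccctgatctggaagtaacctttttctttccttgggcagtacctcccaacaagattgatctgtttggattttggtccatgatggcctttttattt
In all, 178 nuclear rows of the table lay within matches to the mitochondrial genome (at least 98% identity over at least 90% of the gene's span), and 131 of them held 76515 counts together.

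Of the members, 23 have a nuclear row whose reference note names them as best match. These members held 25060 counts and their nuclear partners 14119. The nuclear row's part of a pair had a median of 46.2% and ran from 7.04% for ATMG01220 to 86.3% for ATMG01010, and the nuclear row was the larger in 8 pairs. For ATMG01080 (subunit 9 of ATP synthase, part of the proton-carrying ring) the nuclear row took 9.41% of the pair, for ATMG00990 (a membrane subunit of complex I) 26.1%, and for ATMG00730 (subunit 3 of cytochrome c oxidase) 86.3%. ATMG01190, which the notes give as ATP synthase subunit 1, stayed below the threshold with 87 counts, while its nuclear partner AT2G07698 held 6530. Whether a count in either row came from mitochondrial or nuclear RNA was not tested.

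**Figure D1:**
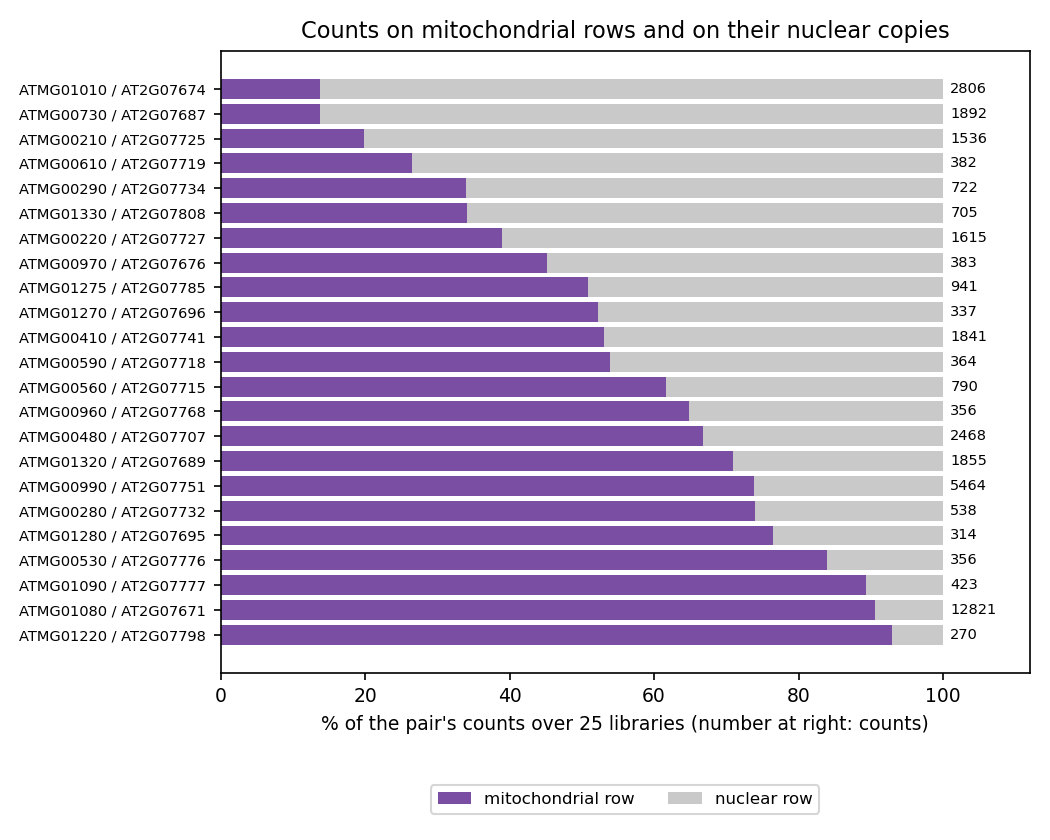
Share of each pair's counts, in % over 25 libraries, that stood in the mitochondrial row and in its nuclear partner, with pairs down the page. The nuclear part runs from 7.04% (ATMG01220) to 86.3% (ATMG01010).

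A pair of rows held most mitochondrial counts. ATMG00020 took 52.3% and ATMG01390 21.6% of the 322666 counts over all ATMG rows. ATMG01080 followed with 3.60%. Without ATMG00020, ATMG01390 and ATMG01380 the ATMG rows held 79690 counts.

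Set against Drosophila counts, mitochondrial counts differed less between long-day and dark seedlings than nuclear ones did, and they were a smaller part of the plant's counts in long-day seedlings. Per 1000 Drosophila counts there were 39.6 ± 15.1 mitochondrial counts in D, 55.1 ± 29.3 in 1h, 62.9 ± 26.6 in 6h, 58.3 ± 33.2 in 24h and 88.3 ± 34.2 in L (mean ± SD, n = 5). The geometric mean in L was 2.21 times that in D, and the libraries of the groups overlapped. Nuclear-encoded counts per Drosophila count were 8.48 times as high in L as in D. As a share of Arabidopsis counts, mitochondrial rows made up 0.0903 ± 0.0619% in D, 0.0965 ± 0.0202% in 1h, 0.0702 ± 0.0321% in 6h, 0.0368 ± 0.0228% in 24h and 0.0209 ± 0.0044% in L. The 5 L libraries, at 0.0139 to 0.0259%, all lay below the 5 D libraries, at 0.0375 to 0.189%. No test was made of these sums. More RNA per cell and more cells cannot be told apart in such bulk samples.

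**Figure D2:**
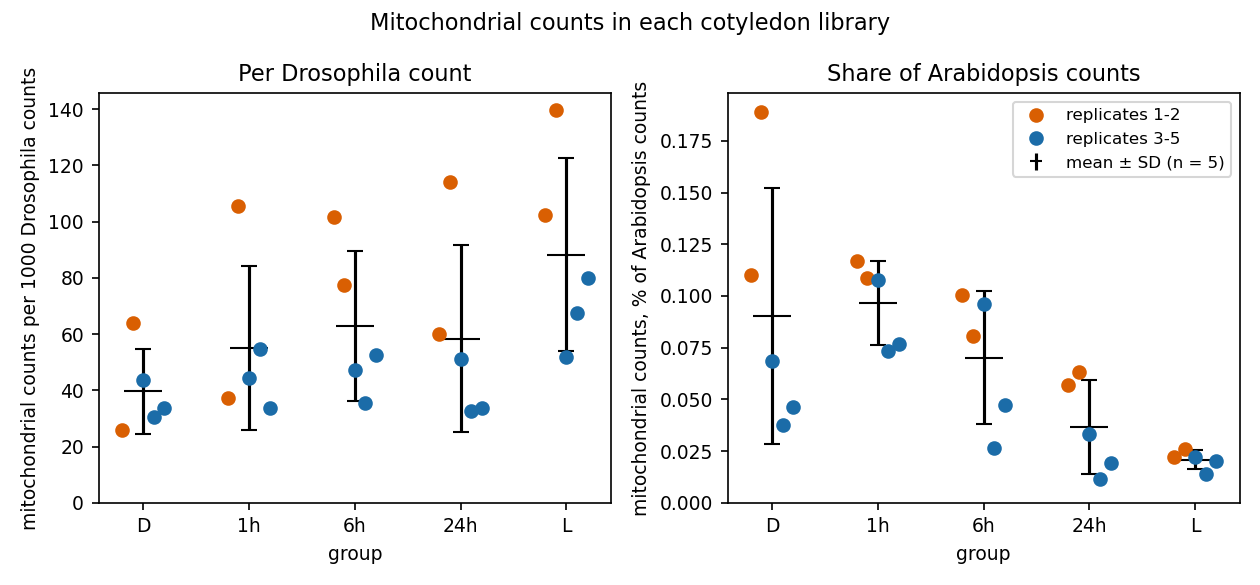
Mitochondrial counts per Drosophila count and as % of Arabidopsis counts in each library, by group; points are libraries, coloured by replicates 1-2 and 3-5, and bars are mean ± SD (n = 5). The L libraries overlap the D libraries on the first scale, and all lie below them on the second, at 0.0139 to 0.0259%.

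ATMG00020, ATMG01390 and ATMG01380 were also left out together, as a list of mitochondrion-encoded ribosomal RNAs chosen with earlier results known. The notes used here to name products hold no name for these rows. ATMG01380, with 4555 counts, held fewer than ATMG01080 and ATMG00090, which were kept. Without ATMG00020, ATMG01390 and ATMG01380 there were 9.05 ± 2.86 counts per 1000 Drosophila counts in D, 13.2 ± 8.8 in 1h, 14.8 ± 8.2 in 6h, 19.9 ± 11.0 in 24h and 31.7 ± 13.4 in L. By geometric means L was 1.78 above D on the log2 scale without these rows and 1.15 with them, and 24h was 1.07 and 0.47 above D. Without them neither L nor 24h overlapped D. Over all replicates the differences from D hardly moved at 6 h, at 0.59 without them and 0.64 with them, and at 1 h, at 0.40 and 0.42. Within the replicate sets they moved in opposite directions. At 6 h they were 1.53 without these rows and 1.12 with them in replicates 1 and 2, and -0.04 and 0.32 in replicates 3 to 5. At 1 h they were 0.89 and 0.62 in replicates 1 and 2, and 0.07 and 0.28 in replicates 3 to 5. ATMG00020 made up 53.2 ± 2.0% of mitochondrial counts in D, 54.5 ± 3.5% in 1h, 55.5 ± 7.2% in 6h, 40.7 ± 6.5% in 24h and 47.3 ± 5.9% in L.

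Between L and D, 36 of the 54 members that passed the low-count filter rose at a Benjamini-Hochberg adjusted p under 0.05 (edgeR quasi-likelihood) and 0 fell, beside 84.9% higher and 1.96% lower among all 20615 genes tested. The median log2 fold change was 1.85 over the members and 2.35 over all genes, and 42 of the 54 members lay below the median of all genes. Levels in all 5 L libraries lay above those in all 5 D libraries for 14 members, beside 68% of all genes. The members that passed the test had log2 fold changes of 0.97 to 4.11. The 18 others ran from -0.29 (ATMG01370) to 1.98 (ATMG00970). Each end of that range rests on 1 L library. In L, ATMG01370 held 10 counts in replicate 5 and ATMG00970 held 18 in replicate 3, with 0 in the other L libraries. Without L replicate 2, 23 rose and 1 fell, and without L replicate 5, 2 fell. Shares over all genes are not given here or below for fits that left out 1 library. Counts of members from such fits thus cannot be read as many or few. The mean level was highest in L for 51 of the 61 members, in 24h for 7, in 6h for 2 and in 1h for 1. Of the 54 tested members it was highest in L for 45, while 91.1% of all tested genes were highest in L.

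The classes of product below cover only tested members with a named product. Members given by identifier alone were not sorted into them. Of the 6 respiratory chain members so named 5 rose in L, near the 84.9% among all genes. ATMG00990 (NADH dehydrogenase 3) had levels of 36.2, 38.0, 5.99, 4.40 and 3.41 in L replicates 1 to 5, against 1.53, 8.33, 1.99, 0.247 and 3.16 in D. Replicates 1 and 2 of L stood far above the rest, and the groups overlapped. Its log2 fold change was 2.52 (SE 0.96, edgeR adjusted p = 0.0157). The other members noted as complex I subunits, ATMG01320 (NADH dehydrogenase 2B) and ATMG01275 (NADH dehydrogenase 1A), rose by 1.79 and 1.95 on the log2 scale.

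ATMG00220 (apocytochrome b, the haem-bearing core of complex III) had levels of 8.13, 7.88, 2.06, 1.68 and 1.36 in L, against 0.391, 1.17, 0.309, 0.353 and 0.261 in D. Every L library lay above every D library, and the gap was widest in replicate 1. The log2 fold change was 3.05 (SE 0.91, edgeR adjusted p = 0.00257).

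ATMG01280 (a protein with the transmembrane domain of cytochrome c oxidase subunit 2) had levels of 0.707, 3.03, 0.589, 0.419 and 0.682 in L, against 0.177, 0.210, 0.196, 0.0706 and 0.130 in D. The groups did not overlap, and L replicate 2 stood apart from the other L libraries. The log2 fold change was 2.71 (SE 0.78, edgeR adjusted p = 0.00199). ATMG00730, cytochrome c oxidase subunit 3, had a log2 fold change of 1.21 with an edgeR adjusted p of 0.175.

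Of the 4 members noted as ATP synthase subunits 2 rose, beside 84.9% of all genes. ATMG00410 (subunit 6, the stator channel for protons) had a log2 fold change of 2.36 (edgeR adjusted p = 0.0183) and ATMG00480 (subunit 8) one of 1.55 (edgeR adjusted p = 0.0262). ATMG01080, the ring subunit 9, had levels of 24.7, 32.5, 9.72, 7.12 and 11.6 in L, against 8.48, 20.4, 10.6, 9.18 and 11.2 in D. The L libraries of replicates 3 and 4 lay below their D counterparts, and the groups overlapped throughout. Its log2 fold change was 0.51 (SE 0.52, edgeR adjusted p = 0.349). ATMG01090, also noted as ATP synthase 9, had 0.87 (edgeR adjusted p = 0.240).

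Both members noted for cytochrome c biogenesis, whose kind of product attaches haem to cytochrome c, rose, beside 84.9% of all genes. ATMG00180 (cytochrome C biogenesis 452) had levels of 1.24, 1.21, 0.589, 0.629 and 0.341 in L, against 0.0559, 0.192, 0.140, 0.177 and 0.130 in D. Every L library lay above every D library. The log2 fold change was 2.50 (SE 0.79, edgeR adjusted p = 0.00411), with 165 counts over all 25 libraries. ATMG00960 (cytochrome C assembly protein) had 2.41 with an edgeR adjusted p of 0.0235 and was at 0 counts in L replicate 4.

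None of the 3 members noted as ribosomal proteins passed the test between L and D, beside 84.9% higher and 1.96% lower among all genes. Members without a named product were not sorted by class, so this says nothing of any ribosomal protein among them. The log2 fold changes were 0.88 for ATMG00210 (protein L5), 0.81 for ATMG00290 (protein S4) and 1.55 for ATMG01270 (protein S7), with edgeR adjusted p-values of 0.182, 0.228 and 0.140. ATMG00290 had levels of 1.94, 1.21, 0.785, 0.419 and 0.341 in L, against 0.205, 0.245, 0.814, 0.883 and 0.554 in D. In replicates 1 and 2 the L level was above D, and in replicates 3 to 5 it was below.

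The most counted rows had log2 fold changes below the median of the members. ATMG00020 had levels of 405, 558, 193, 309 and 399 in L, against 126, 316, 214, 145 and 152 in D. Replicate 3 was lower in L than in D, and the groups overlapped. The log2 fold change was 0.97 (SE 0.45, edgeR adjusted p = 0.0455), a call lost without D replicate 1, 3, 4 or 5 or L replicate 1, 2 or 5, with adjusted p-values of 0.0579 to 0.126. ATMG01390 had levels of 158, 235, 82.8, 84.0 and 94.3 in L, against 57.8, 137, 91.7, 58.5 and 57.9 in D, a log2 fold change of 0.70 (SE 0.47, edgeR adjusted p = 0.163). ATMG01380 held 0 counts in L replicates 1 to 4 and 125 in L replicate 5.

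Among members without a named product or with one of unknown function, ATMG01010, an unknown conserved protein, had the largest fold change. Its levels were 3.53, 5.05, 2.16, 1.47 and 4.43 in L, against 0.140, 0.157, 0.421, 0 and 0.228 in D. All L libraries lay above all D libraries. The log2 fold change was 4.11 (SE 0.83, edgeR adjusted p = 3.88e-05). The nuclear row AT2G07674, which held 2421 counts against 385 in ATMG01010, had a log2 fold change of 3.10 (edgeR adjusted p = 0.000667).

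ATMG00090 had levels of 34.8, 16.6, 33.9, 56.6 and 30.7 in L, against 3.14, 4.87, 8.48, 11.3 and 9.97 in D. The groups did not overlap, and the log2 fold change was 2.19 (SE 0.47, edgeR adjusted p = 8.38e-05). ATMG00070, at 6.31 to 21.0 in L and 1.21 to 3.86 in D, rose by 2.56 on the log2 scale (edgeR adjusted p = 0.000306). ATMG00110 had levels of 2.12, 2.83, 0, 1.47 and 0 in L, against 0.130, 0.140, 0, 0 and 0.684 in D. Its log2 fold change of 2.71 passed the test (edgeR adjusted p = 0.0221) although the groups overlapped, and the call was lost without D replicate 3 or 4 or L replicate 1 or 2, with adjusted p-values of 0.0501 to 0.0820. ATMG01360 rose by 1.85 on the log2 scale (adjusted p = 0.0799 without L replicate 2) and ATMG00520 by 2.33 (0.0620 to 0.0670 without D replicate 1 or 2 or L replicate 4), while ATMG00270 had 1.26 with an edgeR adjusted p of 0.101.

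**Figure D3:**
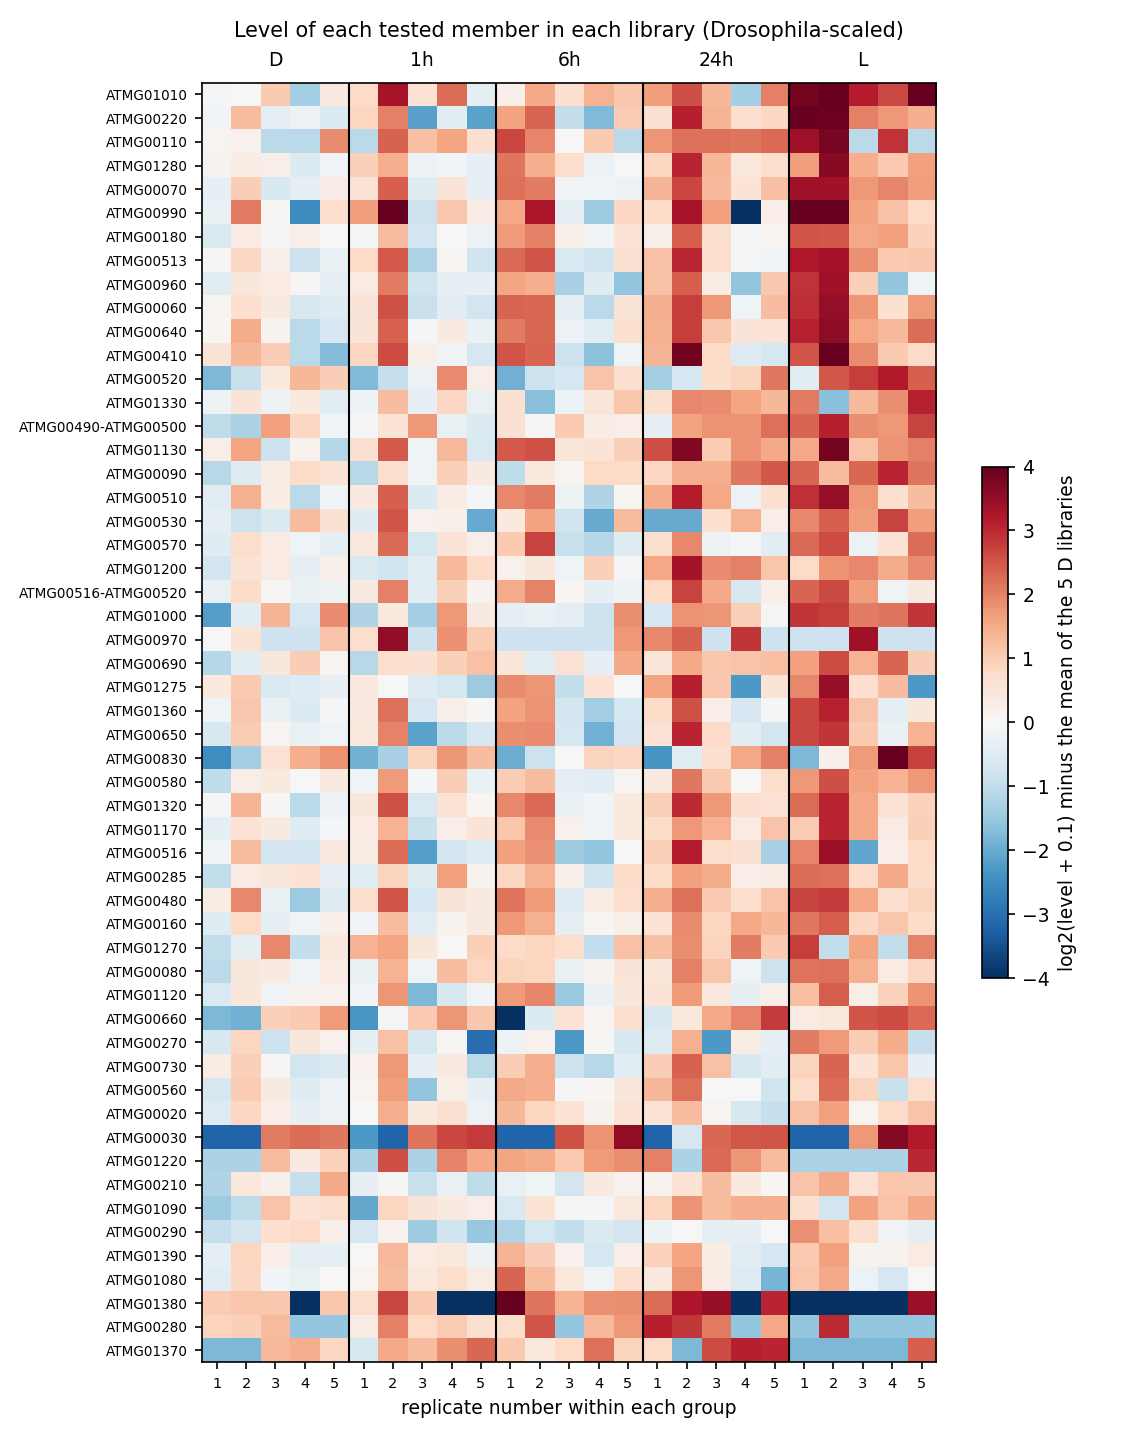
Level of each tested member (rows) in each library (columns, by group and replicate), as log2(level + 0.1) minus the mean of the 5 D libraries. Most rows are highest in L, and within a group replicates 1 and 2 often stand above replicates 3 to 5.

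The direction depended on the yardstick. With TMM scaling over Arabidopsis genes, which centres the bulk of plant genes near no change, 0 of the 54 members rose and 8 fell between L and D, beside 26.9% higher and 30.4% lower among all genes. The median log2 fold change was -0.83 over the members and -0.08 over all genes, whose median thus shifted from 2.35 on the Drosophila scale. The largest decreases on the TMM scale were those of ATMG01080 at -2.40, ATMG01390 at -2.22 and ATMG00020 at -1.91, with edgeR adjusted p-values of 0.00211, 0.00184 and 0.00259. ATMG00290 at -1.54 and ATMG00210 at -1.58, the ribosomal proteins S4 and L5, also fell on it. ATMG00220 stood at -0.030 and ATMG01010 at 1.44, with edgeR adjusted p-values of 0.981 and 0.0772.

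Set against the summed mitochondrial counts of the same library, which asks only how the members' proportions changed, 3 members rose and 0 fell between L and D, beside 36.9% higher and 3.85% lower among all genes. They were ATMG01010 at 2.94 (edgeR adjusted p = 0.00287), ATMG00070 at 1.33 (edgeR adjusted p = 0.0247) and ATMG00640 at 1.20 (edgeR adjusted p = 0.0436). Without D replicate 3 or without L replicate 1, 1 member rose, and without L replicate 2 or 5, 1 or 2 members fell. The call of ATMG00640 was lost without D replicate 3, 4 or 5 or L replicate 1, 2, 3 or 5. With ATMG00020, ATMG01390 and ATMG01380 left out of that sum, 1 member rose, ATMG01010 at 2.31, and 2 fell, ATMG01080 at -1.39 and ATMG01390 at -1.16, beside 23.7% higher and 6.25% lower among all genes. A rise of 1 member on this scale is tied to falls of others, because the proportions add to a whole.

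**Figure D4:**
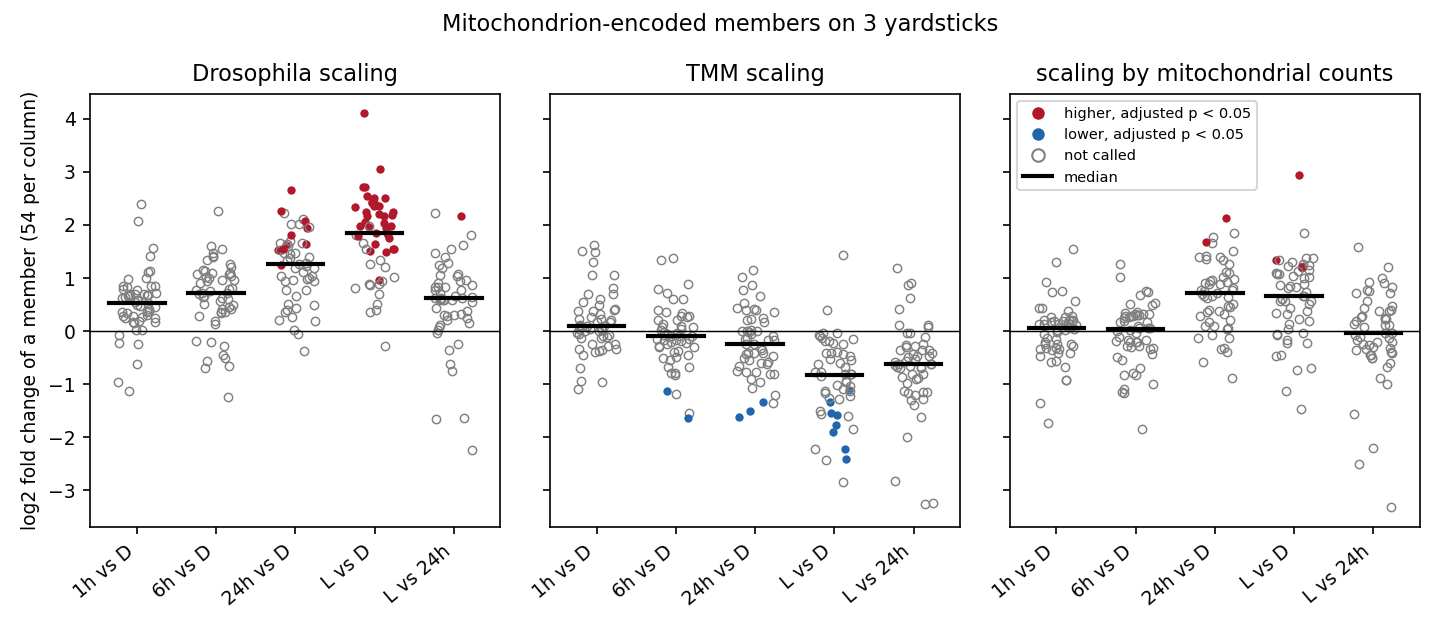
Log2 fold changes of the 54 tested members in each comparison on 3 yardsticks (Drosophila counts, TMM over Arabidopsis genes, summed mitochondrial counts); each point is a member and colour marks an edgeR adjusted p under 0.05. Between L and D the members centre at 1.85 on the Drosophila scale and -0.83 on the TMM scale.

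After 24 h of light, 10 members rose against D and 0 fell, beside 50.3% higher and 3.76% lower among all genes. The median log2 fold change was 1.27 over the members and 1.19 over all genes. With the replicate number as a block, 19 members rose, beside 59% of all genes. ATMG01200 had levels of 0.662, 2.52, 0.869, 0.959 and 0.463 in 24h, against 0.0559, 0.280, 0.225, 0.106 and 0.195 in D. The groups did not overlap, and the log2 fold change was 2.65 (SE 0.70, edgeR adjusted p = 0.00213). ATMG01130 followed with 2.26 (SE 0.71, edgeR adjusted p = 0.0087) and ATMG01280 with 2.08 (SE 0.75, edgeR adjusted p = 0.0204). The others were ATMG00060, ATMG00070, ATMG00090, ATMG00160, ATMG01010, ATMG01320 and ATMG01330, at 1.25 to 1.94.

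Without 24h replicate 2 only 3 members passed, and without D replicate 1 only 5, with no share over all genes given for these fits. ATMG01130 and ATMG01280 then had edgeR adjusted p-values of 0.0607 and 0.214 without 24h replicate 2. Levels did not overlap between 24h and D for 4 members, beside 35.7% of all genes. On the TMM scale 0 members rose and 3 fell, beside 26.2% higher and 28.9% lower among all genes: ATMG00270 at -1.62, ATMG00290 at -1.51 and ATMG00020 at -1.33 on the log2 scale. Against summed mitochondrial counts 2 rose and 0 fell, beside 26% and 4.32% of all genes, ATMG01200 at 2.13 and ATMG01130 at 1.68, and 10 rose with the replicate block, beside 44.8%. On this scale 1 rose without D replicate 1 or 2, 0 without D replicate 3 or 24h replicate 4, and 4 without D replicate 4 or 24h replicate 1. The call of ATMG01130 was also lost without D replicate 5 or 24h replicate 2. All 10 members that rose in 24h were among the 36 that rose in L, and both comparisons share the D libraries.

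No member passed the edgeR test after 1 h or 6 h of light in the fit without a replicate term. At 1 h, 1 member was higher and 0 lower at an unadjusted p under 0.05, and DESeq2 with Drosophila size factors called 0. Among all genes 3.06% were higher and 0.994% lower by edgeR and 3.99% and 1.42% by DESeq2. The median log2 fold change at 1 h was 0.54 over the members and 0.03 over all genes. At 6 h, 3 members were higher and 0 lower at an unadjusted p under 0.05, and DESeq2 called 0. Among all genes 21.4% were higher and 5.05% lower by edgeR and 24.9% and 5.85% by DESeq2. The medians at 6 h were 0.71 over the members and 0.56 over all genes. With the replicate number as a block, 3 members rose at 6 h, beside 28.2% of all genes: ATMG01130 by 1.67, ATMG00640 by 0.94 and ATMG01380 by 3.40 on the log2 scale. ATMG01380 held 0 counts in D replicate 4. Its level was 50.0 in 6h replicate 1 and 5.02 to 8.49 in the other 6h libraries. Without D replicate 2, 1 member rose at 6 h in the fit without the block. At 6 h 1 member had no overlap with D, beside 10.6% of all genes. On the TMM scale 2 members fell and 0 rose at 6 h, beside 26.3% and 26.5% of all genes, and both are ribosomal proteins, ATMG00290 at -1.63 and ATMG00210 at -1.12. Against summed mitochondrial counts 0 passed at 6 h, beside 7.2% higher and 7.71% lower among all genes, and with the block ATMG00290 fell by 1.73 on the log2 scale (edgeR adjusted p = 0.0268), beside 16.3% of all genes lower.

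Between L and 24h, which differ in age and day length as well as in light, 1 member rose and 0 fell, beside 52.5% higher and 0.514% lower among all genes. The medians were 0.62 over the members and 1.18 over all genes. The member was ATMG01010, at 3.53, 5.05, 2.16, 1.47 and 4.43 in L, against 0.706, 1.43, 0.535, 0 and 0.926 in 24h. These libraries did not overlap, and the log2 fold change was 2.17 (SE 0.77, edgeR adjusted p = 0.025). The call was lost without 24h replicate 1, 24h replicate 3 or L replicate 2, and 7 members rose without 24h replicate 2 and 2 without 24h replicate 4. Without L replicate 2 or 5, 1 or 3 members fell. Levels did not overlap for 3 members, beside 19% of all genes.

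The members also differed between replicates 3 to 5 and replicates 1 and 2, a split by replicate number for which the labels give no reason. As CPM of Arabidopsis counts, with the libraries of each set summed, 45 members were lower and 16 higher in replicates 3 to 5. Within the groups, 45 members were lower in replicates 3 to 5 in D, 41 in 1h, 40 in 6h, 50 in 24h and 41 in L. The share of all genes lower within each group is not given here, so these counts cannot be read as many or few. The median log2 ratio was -0.97 over the members and -0.06 over all tested genes. The range ran from -2.45 for ATMG00410 to 6.56 for ATMG00030. ATMG00030 held 30 to 311 counts in each of the 15 libraries of replicates 3 to 5, and in the 10 libraries of replicates 1 and 2 it held 0 counts in 8 and 7 counts in the 2 others. Its summed counts were 1882 in replicates 3 to 5 and 14 in replicates 1 and 2. The split also depended on the yardstick. Per Drosophila count, ATMG rows other than ATMG00020, ATMG01390 and ATMG01380 averaged 0.00905 in both sets in D. In 1h, 6h, 24h and L they averaged 0.0183, 0.0236, 0.0265 and 0.0456 in replicates 1 and 2. In replicates 3 to 5 they averaged 0.00975, 0.00903, 0.0155 and 0.0225. Nuclear counts per Drosophila count in D were 27.7 in replicates 1 and 2 and 66.6 in replicates 3 to 5.

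The next were ATMG00830 at 3.01, ATMG00520 at 2.65, ATMG00660 at 2.33 and ATMG01370 at 2.11 on the log2 scale. ATMG00830 ran from 1.01 to 5.52 CPM in replicates 3 to 5 and from 0.0423 to 0.920 CPM in replicates 1 and 2, with no overlap. For ATMG00520 the joined row ATMG00516-ATMG00520, which shares an identifier with it, moved the other way, with 109 counts in replicates 3 to 5 and 212 in replicates 1 and 2. Among the members lower in replicates 3 to 5, ATMG00990 had a median of 2.88 CPM there and of 10.4 CPM in replicates 1 and 2, and ATMG00410 had 0.491 and 3.92 CPM. In all, 2 members were higher and 3 lower in replicates 3 to 5 without overlap, all of them tested, beside 0.272% and 0.194% of all tested genes.

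**Figure D5:**
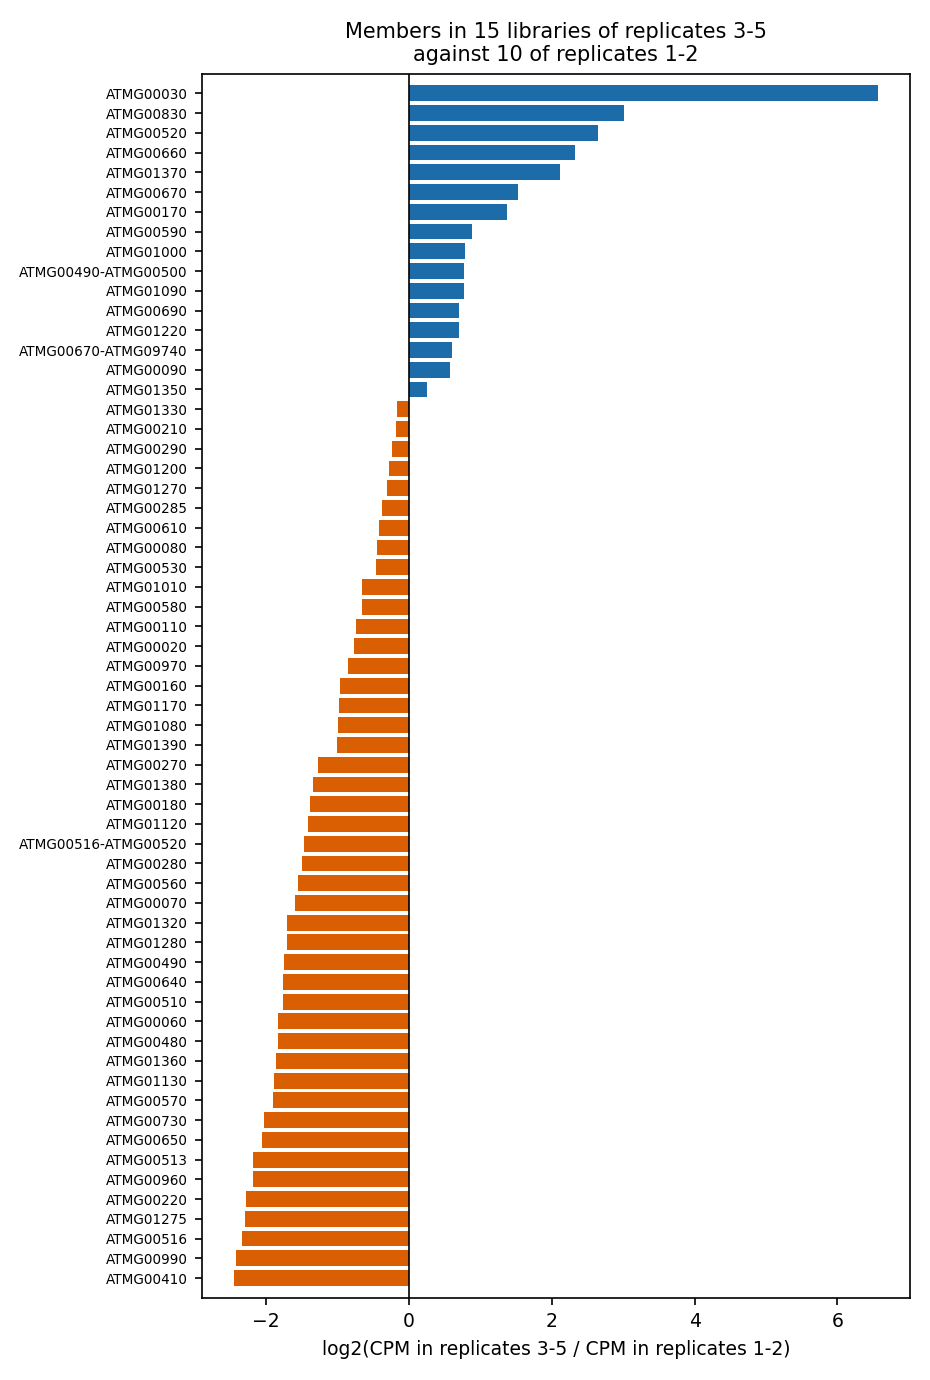
Log2 ratio of the CPM over Arabidopsis counts in replicates 3-5 over replicates 1-2 for each of the 61 members, with libraries of a set summed. Bars run from -2.45 (ATMG00410) to 6.56 (ATMG00030), with 45 below 0.

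Plastid counts moved the other way. They took a median of 7.76% of Arabidopsis counts in replicates 3 to 5 (range 3.83 to 16.0%) and of 2.12% in replicates 1 and 2 (range 0.549 to 4.09%), while mitochondrial counts took a median of 0.0375% and 0.0905% in those sets. Nuclear rows within mitochondrial matches held a median of 1.15 counts for each count of the ATMG rows other than ATMG00020, ATMG01390 and ATMG01380 in replicates 3 to 5, and 0.745 in replicates 1 and 2. The part of these values in the members' differences was not tested.

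Within the sets, L against D gave 36 higher and 1 lower member in replicates 1 and 2 alone, beside 87.8% and 0.993% of all genes. The lower one was ATMG01380, which held no count in either L library. In replicates 3 to 5 alone it gave 19 higher and 0 lower of 52 tested, beside 64.2% and 2.3%. Called higher in both were 12 members, 33.3% of those called in replicates 1 and 2 and 63.2% of those called in replicates 3 to 5. The same overlap over all genes is not given here, so the 12 cannot be read as many or few. Among the 12 were ATMG00220, at 2.46 in replicates 3 to 5 and 3.37 in replicates 1 and 2, and ATMG01010, at 3.58 and 4.83 on the log2 scale. ATMG00990 gave 1.36 in replicates 3 to 5 (edgeR adjusted p = 0.153) and 2.92 in replicates 1 and 2 (edgeR adjusted p = 0.000165). ATMG01080 gave -0.12 in replicates 3 to 5 and 0.99 in replicates 1 and 2, neither past the test. The difference between the sets was not tested.

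The nuclear rows that lie within matches to the mitochondrial genome were read beside the members. Of the 48 tested, 35 rose and 0 fell between L and D, beside 84.9% and 1.96% of all genes, with a median log2 fold change of 1.89. On the TMM scale 1 rose and 2 fell, beside 26.9% and 30.4%, with a median of -0.89. Among the 16 pairs in which both rows were tested, 8 had both rows higher in L. With each member's counts summed with those of its partner, 41 members rose, beside 84.9% of all genes, and they included the 36 that rose alone. The most counted of these nuclear rows were AT2G07675 with 20994 counts and AT2G07783 with 10082. The RefSeq annotation places AT2G07675 at chr2:3270410-3270787 on the plus strand, next to the nad3 copy.

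Nuclear genes for the same complexes were higher in L. All 62 listed subunits of the respiratory chain and ATP synthase rose against D on the Drosophila scale, beside 84.9% of all genes, with a median log2 fold change of 2.72. On the TMM scale 24 rose and 1 fell, beside 26.9% and 30.4%, with a median of 0.22. By complex, the TMM counts were 9 higher and 1 lower of 19 for complex I, 1 higher of 7 for complex II, 8 of 16 for complex III with cytochrome c, 1 of 8 for complex IV and 5 of 12 for ATP synthase. CYTC-2, a cytochrome c that carries electrons from complex III to complex IV, averaged levels of 7.83 ± 4.42 in D, 80.3 ± 40.1 in 1h, 39.1 ± 10.6 in 6h, 99.7 ± 19.3 in 24h and 266 ± 176 in L (SD, n = 5). Its log2 fold change between L and D was 5.09 (edgeR adjusted p = 1.85e-09), and 2.62 on the TMM scale. FRO1, a complex I subunit, rose in L by 3.25 on the Drosophila scale and by 0.68 on the TMM scale. SDH1-1, the flavoprotein of complex II, rose by 3.05 and by 0.68. At 24 h, 44 of the 62 rose, beside 50.3% of all genes, and on the TMM scale 12 rose and 7 fell, beside 26.2% and 28.9%.

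Nuclear genes of alternative respiration, whose enzymes pass electrons around parts of the main chain, differed among themselves on the TMM scale. Of 8 tested, 7 rose between L and D on the Drosophila scale, beside 84.9% of all genes, and 2 rose and 2 fell on the TMM scale, beside 26.9% and 30.4%. NDA1, an alternative NAD(P)H dehydrogenase, averaged levels of 0.178 ± 0.108 in D, 1.02 ± 0.79 in 1h, 20.0 ± 13.2 in 6h, 165 ± 94 in 24h and 728 ± 460 in L (SD, n = 5). Its log2 fold change between L and D was 12.08 (edgeR adjusted p = 9.74e-13), and 9.59 on the TMM scale. AOX1A, the alternative oxidase that passes electrons from ubiquinol to oxygen, rose in L by 3.78 on the Drosophila scale (edgeR adjusted p = 3.45e-07) and by 1.30 on the TMM scale.

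All 21 tested genes for mitochondrial transcription, splicing and RNA decay rose between L and D on the Drosophila scale, beside 84.9% of all genes, and on the TMM scale 7 rose and 3 fell, beside 26.9% and 30.4%. MGP3 (AT1G68990), a phage-type RNA polymerase that transcribes mitochondrial genes, averaged levels of 3.03 ± 2.08 in D, 2.83 ± 1.69 in 1h, 6.62 ± 3.43 in 6h, 9.48 ± 1.80 in 24h and 31.8 ± 20.0 in L (SD, n = 5). It rose in L by 3.40 on the log2 scale (edgeR adjusted p = 2.21e-06) and by 1.05 on the TMM scale (edgeR adjusted p = 0.00364). AT5G15700, the polymerase of this family noted for both mitochondria and plastids, rose by 2.76 in L and had 0.40 on the TMM scale (edgeR adjusted p = 0.129). All 9 genes of mitochondrial DNA maintenance rose in L on the Drosophila scale, beside 84.9% of all genes, with POLGAMMA2, an organellar DNA polymerase, at 3.83. On the TMM scale 1 rose and 2 fell, beside 26.9% and 30.4%.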

How the data were processed

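The values are whole-number counts per gene as deposited by the authors, in 1 table of 53986 rows, with no normalization. Per the labels' protocols, libraries were stranded and paired-end on DNB-seq. Per the submitters' processing notes, Salmon 1.9.0, HTSeq, R 4.3.2 and the TAIR10 build were used, without saying at which step. The sources used here do not say whether RNA was selected by poly(A) tails or depleted of ribosomal RNA. Rows with no species identifier (1539, with 0.119% to 0.741% of a library's counts) were left out.

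Library sizes were set by summed Drosophila counts, or by summed ATMG counts for proportions. edgeR 4.0.16 (R 4.3.3) tested all 25 libraries in 1 quasi-likelihood fit after filterByExpr (minimum count 10, minimum total 15), which kept 20615 genes and 54 members. The 7 members below the filter are ATMG00170, ATMG00490, ATMG00590, ATMG00610, ATMG00670, ATMG00670-ATMG09740 and ATMG01350. Calls needed a Benjamini-Hochberg adjusted p under 0.05 over all genes. TMM and DESeq2 1.42.0 were alternatives, beside the replicate block, each replicate set alone and each library left out. The fits were tested on simulated data.

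Nuclear copies were found with blastn 2.17.0 on the TAIR10.1 reference, whose mitochondrial sequence may not be the one used for counting, and sequences are from RefSeq's TAIR10.1. Levels per length were not computed because no length of an ATMG row is in the reference used here, and no promoter was searched.

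Named genes were, per comparison and scaling, the 3 called members with the largest increase and decrease, 10 fixed members, and for each nuclear list up to 3 called genes with the largest change in L. Other members were named after their values were seen. Members, lists and rules were chosen with earlier results of these data known. Same-numbered samples deviated together for 1h, 6h and 24h against D (every pair's correlation of deviations from the group means over 0.1, the lowest 0.161), so replicate numbers were taken to pair those samples from the data alone. Replicates 1, 2 and 3 of 6h and replicate 1 of 24h did not correlate best with their own number, so the pairing there is less sure. For L against D, replicates 3 and 5 fell below 0.1, at 0.038 and 0.0314, while replicates 1, 2 and 4 had 0.168, 0.213 and 0.187. L was not taken as paired. The main fit had no term for replicate number and so left the pairing of 1h, 6h and 24h with D out. The replicate block put that term on all groups, L among them.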

Additional observations from a re-analysis of the deposited data

Results flagged for a closer look

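Single libraries stood apart from the other 4 of their group in 20 of 110 groups of 5 examined (Dixon's test, gap over range above 0.71). Chance flags about 1 in 20 independent groups, but these groups reuse the same 25 libraries and, for levels, the same Drosophila scaling, so that rate is no yardstick for how many stood apart. Replicate 2 was the library in 16 of them, always on the high side. In D, replicate 2 held levels of 20.4 of ATMG01080, with the other D libraries at 8.48 to 11.2, and of 5.28 of ATMG00640, 4.25 of ATMG01360, 1.17 of ATMG00220 and 0.472 of ATMG00516-ATMG00520.

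In 1h, replicate 2 held levels of 10.5 of ATMG00070, 9.69 of ATMG00640 and 9.54 of ATMG01360. In 24h, replicate 2 held 2.52 of ATMG01200, 1.97 of ATMG01280, 4.43 of ATMG00220, 12.9 of ATMG00070, 12.9 of ATMG00640 and 12.0 of ATMG01360. In L, replicate 2 held 8.08 of ATMG01130, with the others at 1.18 to 2.22, and 3.03 of ATMG01280.

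The 4 others were ATMG00110 at 0.684 in D replicate 5 and low at 0.618 in 24h replicate 1, ATMG00520 at 1.30 in 1h replicate 4, and ATMG01080 at 6.26% of mitochondrial counts in 6h replicate 1, against 3.24 to 3.96% in the other 6h libraries. No explanation of these libraries was tested.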

How the results depend on the processing

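TMM over Drosophila genes, no low-count filter and summing members with their nuclear rows left the counts of members called in the 5 comparisons, on the Drosophila scale, within 1.5 times, and the last of these kept the sign of the 15 fold changes it was run on. TMM over Arabidopsis genes gave 0 higher and 2 lower at 6 h, 0 and 3 at 24 h, 0 and 8 in L, and 0 higher for L against 24h. It turned the L against D log2 fold change of ATMG00220 to -0.030, ATMG00110 to -0.079, ATMG01360 to -1.18, ATMG01080 to -2.40, ATMG00270 to -1.50, ATMG00290 to -1.54, ATMG00516-ATMG00520 to -0.82, ATMG01390 to -2.22 and ATMG00020 to -1.91. DESeq2 with median-ratio size factors gave 3 lower at 6 h, 0 higher and 3 lower at 24 h, 1 higher and 11 lower in L, and 0 higher and 1 lower for L against 24h. Among all genes that fit called 26.7% lower at 6 h, 28% higher and 28.3% lower at 24 h, and 8.05% higher and 5.99% lower for L against 24h. Both these scalings centre plant genes near 0 by construction, and in L 29.5% of all genes were higher and 28.6% lower by this DESeq2 fit. DESeq2 with Drosophila size factors gave 2 higher for L against 24h, beside 59.8% of all genes.

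The replicate block gave 3 higher at 6 h, 19 at 24 h, 38 in L, and 13 higher and 1 lower for L against 24h, beside 28.2%, 59%, 86.4%, and 70.2% and 0.606% of all genes. By summed mitochondrial counts it gave 1 lower at 6 h, 10 higher at 24 h, and 17 higher and 1 lower in L, beside 16.3%, 44.8%, and 64.7% and 5.37% of all genes. L samples did not pair with D or 24h samples by number (lowest correlations 0.0314 and 0.0184, and no L sample correlated best with its own number in D), so there the number is only shared. Replicates 1, 2 and 3 of 6h and replicate 1 of 24h also did not correlate best with their own number in D. The block changed no other call count by over 1.5 times. A term for replicates 1-2 against 3-5 gave 1 higher at 6 h, 16 at 24 h and 5 for L against 24h, beside 23.8%, 52.9% and 57.6% of all genes. Fitting only the groups compared gave 1, 20 and 7 higher there, beside 20.4%, 52.2% and 73.4%, with 1 lower for L against 24h, beside 0.376%.

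Replicates 1-2 alone gave 3 higher at 1 h, 8 at 6 h, 24 higher and 1 lower at 24 h, 36 and 1 in L, and 2 and 2 for L against 24h, beside 8.31%, 39.8%, 61.1% and 2.03%, 87.8% and 0.993%, and 44.7% and 0.719% of all genes. By summed mitochondrial counts they gave 2 and 1 at 6 h, 1 lower at 24 h, 13 and 1 in L, and 1 and 2 for L against 24h, beside 19.1% and 5.52%, 5.03%, 70.1% and 3.3%, and 43% and 1.04%. Replicates 3-5 alone gave 5 higher at 24 h, 19 in L and 0 for L against 24h, beside 28.2%, 64.2% and 1.53% of all genes, by summed mitochondrial counts 0 at 24 h and 1 in L, beside 21% and 18.3%, and L against D values of -0.12 for ATMG01080 and -0.48 for ATMG00290. With ATMG00020, ATMG01390 and ATMG01380 out of the sum, or with TMM over members, 0 rose at 24 h, and 1 rose and 2 fell in L. Among all genes 15.6% and 12.6% were higher at 24 h in these fits. In L 23.7% and 19.2% of all genes were higher, and 6.25% and 5.85% lower. The cause of these changes was not tested.

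Leaving out 1 library in turn gave 0 to 1 higher at 6 h, 3 to 13 at 24 h, 23 to 39 higher and 0 to 2 lower in L, and 0 to 7 higher and 0 to 3 lower for L against 24h. By summed mitochondrial counts it gave 0 to 1 lower at 6 h, 0 to 4 higher at 24 h, 1 to 3 higher and 0 to 2 lower in L, and 0 to 2 lower for L against 24h. Shares over all genes in these fits are not given here, so whether such changes were particular to the members cannot be read from them.

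Without those 3 rows, mitochondrial counts per 1000 Drosophila counts were 9.05 in D, 13.2 in 1h, 14.8 in 6h, 19.9 in 24h and 31.7 in L, and shares of Arabidopsis counts 0.0196, 0.0221, 0.0159, 0.0119 and 0.00757%. Replicates 1-2 alone gave 89.7 per 1000 in 6h and 0.0602% in 24h. Nuclear respiratory genes went to 24 higher and 1 lower in L with TMM, genes of expression and DNA maintenance to 8 and 5 with TMM and to 19 higher in replicates 3-5, and alternative respiration to 2 and 2 with TMM and 1 lower in replicates 3-5, with 0 to 1 lower on leaving out 1 library. No row outside those starting with ATMG holds an ATMG identifier, so adding joined rows gave no separate value. Low counts in L, where 1 count was worth up to a level of 0.210, limit the members of few counts.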
